A study of Mus musculus with 12 samples.

Results

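The Slc25 family encodes the mitochondrial solute carriers. Its members were taken as every probe set whose gene symbol in the platform annotation is Slc25a followed by a number, which gave 93 probe sets of 45037 and 44 genes of 18193. Of these genes, 37 were bright enough to test, among 11166 genes tested in all. The hearts were those of male C57BL/6 mice. The description of the design gives about 30 weeks for all mice, while the age field of TG tamoxifen 1 says 40 weeks. ATF6-MER transgenic mice (TG) and their nontransgenic littermates (NTG) received tamoxifen or vehicle, which gave 4 groups of 3 mice, and RNA of each left ventricle was hybridised to its own Affymetrix array. ATF6 is a transcription factor of the endoplasmic reticulum stress response, and MER is a mutated mouse estrogen receptor domain through which tamoxifen switches the fused protein on. The sources used here do not give the promoter that drives the transgene, the number of founder lines, or the dose and length of treatment.

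Slc25 carriers sit almost all in the inner mitochondrial membrane, where each exchanges or imports a small set of metabolites, nucleotides, cofactors or ions between cytosol and matrix. In the heart, a tissue that draws most of its ATP from fatty acid oxidation, they let ADP and phosphate in and ATP out, bring in acylcarnitines, and move reducing equivalents through the malate-aspartate shuttle. The proteins are made in the cytosol and inserted into the inner membrane by a dedicated import machinery.

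Levels below are log2(intensity + 16) after quantile normalisation, 1 value per array, and are compared between arrays and never between genes. Changes are log2 differences between group means ± their standard error from limma, with p adjusted over all 11166 genes, and 3 arrays stand behind each group. Median deposited intensities of the arrays ran from 648 to 834. Esr1, which tracks the receptor domain of the transgene, read 16.66 to 17.15 on the TG tamoxifen arrays and 17.90 to 18.23 on the TG vehicle arrays. The array labelled NTG tamoxifen 1 read 17.72 for Esr1, where the other 5 NTG arrays read at most 10.88. For the ATF6 target Hspa5 it read 18.05, beside 15.65 and 15.49 on NTG tamoxifen 2 and 3. The TG tamoxifen arrays read 18.37 to 18.47 for Hspa5. Rcan1 read 15.29 to 15.96 on the TG tamoxifen arrays, 13.06 and 13.46 on NTG tamoxifen 2 and 3, and 15.17 on the array labelled NTG tamoxifen 1. Calls in comparisons that hold this array are given with and without it. The title of TG vehicle 3 says vehicle and its treatment field says tamoxifen, and the title was used. This array read 15.94 for Hspa5 and 14.14 for Rcan1, below the TG tamoxifen arrays for both genes. TG vehicle 1 and 2 read 16.38 and 15.76 for Hspa5, and 13.75 and 13.35 for Rcan1. The 3' to 5' signal ratio of beta-actin, a sign of RNA integrity, spanned 1.75 to 1.88 with tamoxifen and 1.32 to 1.68 with vehicle in TG hearts, and 1.78 to 1.97 with tamoxifen and 2.12 to 2.43 with vehicle in NTG hearts.

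In transgenic hearts the carriers that passed the test were mostly lower with tamoxifen. Of the 37 tested members, 11 fell and 3 rose in TG tamoxifen against TG vehicle, 37.8% in all, where 24.8% of all genes tested passed. By direction, 29.7% of members fell against 14.4% of all genes, and 8.11% rose against 10.4%. The median change of the 37 members was -0.30, beside -0.07 over all genes tested, and 24 members had a negative change. Without TG tamoxifen 3 these medians were -0.09 and -0.07. Without any other single array the members' median ran from -0.32 to -0.24. It was -0.18 with the beta-actin 3' to 5' ratio as a covariate and -0.13 with TG vehicle 3 counted as tamoxifen, beside -0.05 and -0.04 over all genes. Genes that encode subunits of the oxidative phosphorylation complexes had 0 of 78 higher and 32 lower, with a median of -0.39, and solute carriers outside the family had 17 of 143 higher and 25 lower, with a median of -0.11. In whole ventricle, fewer cells of a type and less RNA per cell cannot be told apart.

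For 15 members every TG tamoxifen array lay below every TG vehicle array (40.5%, against 24.4% of all genes) and for 6 above (16.2%, against 19.8%). On the deposited intensities, without quantile normalisation, the counts were 15 and 5, and with median centring 14 and 5, comparisons added after the data were seen. Summed cardiomyocyte markers read 20.99 to 21.06 on tamoxifen arrays and 21.17 to 21.20 on vehicle arrays of TG hearts, and 2 of 8, Ryr2 and Tnnc1, fell. Summed endothelial markers read 14.87 to 14.99 against 15.26 to 15.51 (4 of 6 fell), adipocyte markers 12.28 to 12.61 against 13.30 to 13.92 (Cidea fell, while Adipoq and Ucp1 did not reach the level for testing), fibroblast markers 17.53 to 17.76 against 17.77 to 17.98 (of 6, Dcn fell and Col3a1 rose), and macrophage markers 16.54 to 17.11 against 15.79 to 16.81 (1 of 7, Ptprc, rose). The TG groups overlapped in summed atrial (16.37 to 17.50 against 14.98 to 16.55), smooth muscle (15.21 to 16.16 against 14.21 to 15.98) and erythroid markers (13.07 to 13.62 against 12.08 to 14.14). Among NTG tamoxifen arrays all 4 atrial markers were highest on NTG tamoxifen 2. There Myl7 read 15.12, beside 8.76 and 12.21 on NTG tamoxifen 1 and 3. Without NTG tamoxifen 1, that group rests on NTG tamoxifen 2 and 3. The part of these shifts and differences in the carriers' changes was not tested.

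With the beta-actin ratio as a covariate, 0 of the 37 members passed limma's test (15 at an unadjusted p under 0.05, and 28 of all genes after adjustment), and with TG vehicle 3 counted as tamoxifen, as its treatment field has it, also 0 (14 unadjusted, and 0 of all genes after adjustment). The 14 members that passed in the reported fit kept their sign in both fits. With the covariate Slc25a39 had the smallest change of the 14, -0.21 (-0.62 in the reported fit), and Slc25a34 the largest, -3.58 (-4.19). Tamoxifen and vehicle arrays of TG hearts did not overlap in the beta-actin ratio, so that fit separates the ratio from tamoxifen poorly. Without TG tamoxifen 1, 9 members passed, where 13.1% of all genes did. Without both TG tamoxifen 1 and TG vehicle 3, the arrays whose labels conflict on age and on treatment, 5 members passed, where 6.62% of all genes did.

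**Figure D1:**
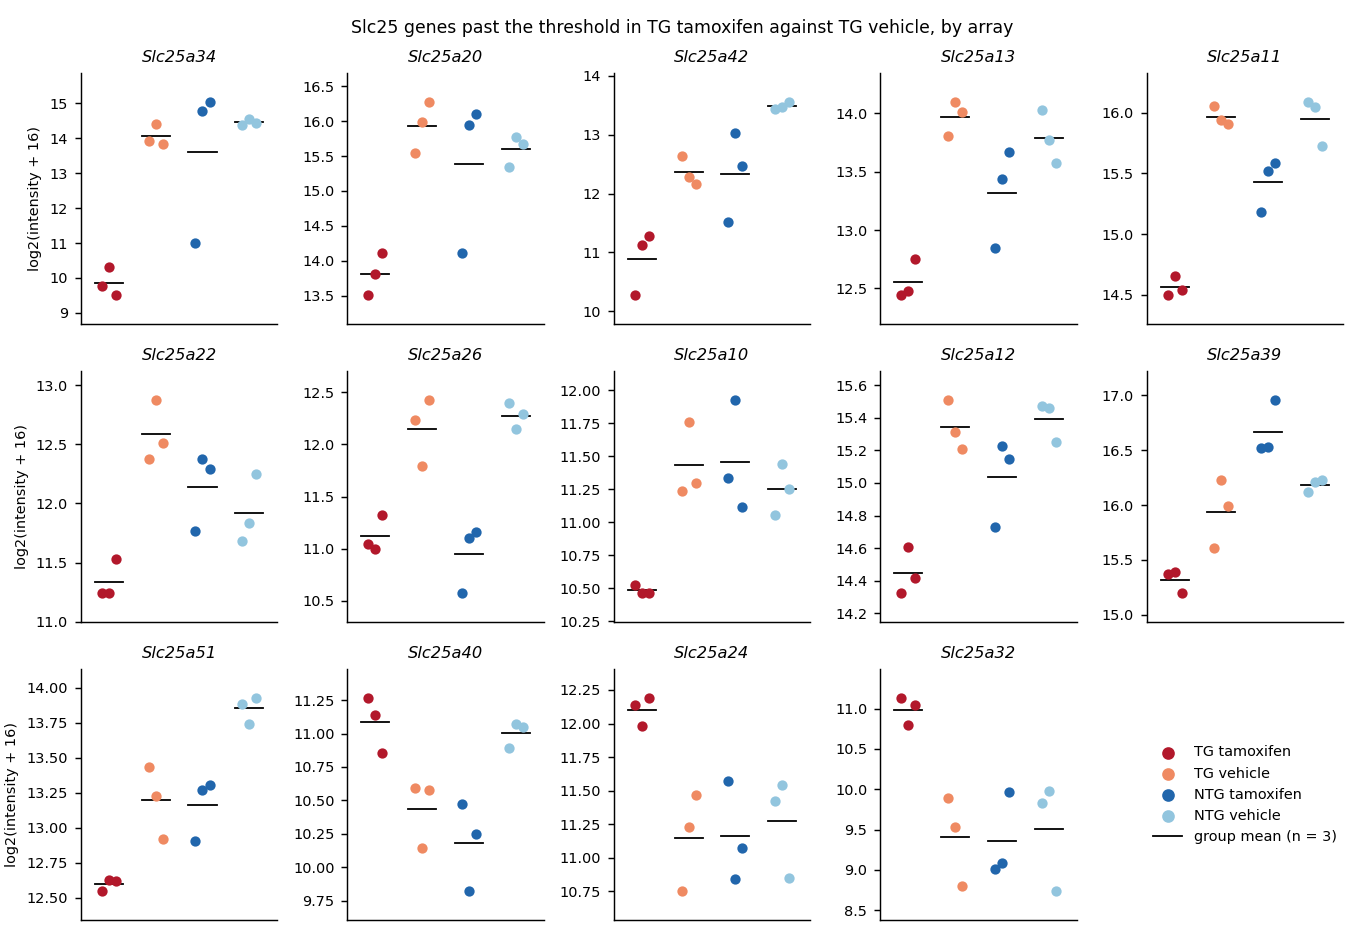
Level on every array, as log2(intensity + 16), of the 14 Slc25 genes that passed the test in TG tamoxifen against TG vehicle. Each point is 1 array, colours give the 4 groups and black lines the group means of 3 arrays. The vertical scale differs between panels. For Slc25a34 the TG tamoxifen arrays lie between 9.50 and 10.33 and the TG vehicle arrays between 13.84 and 14.40, and 1 NTG tamoxifen array, labelled 1, lies apart from the other NTG tamoxifen arrays at 10.99.

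Slc25a34, a carrier of the inner membrane whose physiological substrate is not settled, had the largest change of the 37 tested members. It read 9.77, 10.33 and 9.50 on TG tamoxifen arrays 1 to 3 and 13.93, 14.40 and 13.84 on the TG vehicle arrays. On the arrays labelled NTG it read 10.99, 14.79 and 15.04 with tamoxifen and 14.39, 14.55 and 14.44 with vehicle. Every TG tamoxifen array lay below all other arrays, and the array labelled NTG tamoxifen 1 was the next lowest. Slc25a34 fell by 4.19 ± 0.80 in TG tamoxifen against TG vehicle, 18.3-fold (adjusted p = 0.00507, 95% interval -5.94 to -2.44). Its close relative Slc25a35 did not pass the test, at -0.50 ± 0.24 (adjusted p = 0.152).

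Slc25a20 encodes the carnitine-acylcarnitine translocase, which brings fatty acyl groups into the matrix for oxidation. Levels were 13.50, 13.82 and 14.12 in TG tamoxifen and 15.55, 15.98 and 16.27 in TG vehicle. In the nontransgenic groups they were 14.11, 15.94 and 16.10 with tamoxifen and 15.34, 15.77 and 15.68 with vehicle. The TG tamoxifen and TG vehicle arrays did not overlap, while the array labelled NTG tamoxifen 1 lay just below the highest TG tamoxifen array. Slc25a20 fell by 2.12 ± 0.43, 4.35-fold (adjusted p = 0.00695). Both of its probe sets above the filter level read lower, and when every probe set was tested the other one read -1.93 (adjusted p = 0.0215).

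Among the enzymes read here that hand acyl groups to and from this carrier, Cpt2 and Crat fell too, while Cpt1a did not pass. Cpt2, which reforms acyl-CoA on the matrix side, read 11.99, 12.07 and 12.02 in TG tamoxifen and 15.17, 15.36 and 14.99 in TG vehicle. Its groups were apart, and Cpt2 fell by 3.15 ± 0.46 (adjusted p = 0.00191). Crat, carnitine acetyltransferase, fell by 1.37 ± 0.24 (adjusted p = 0.0033), and Cpt1a, a carnitine palmitoyltransferase of the outer membrane, read -0.82 ± 0.28 (adjusted p = 0.0541). On the array labelled NTG tamoxifen 1 Cpt2 read 13.22, below the 15.61 and 15.25 of the other NTG tamoxifen arrays.

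Promoter windows, taken from RefSeq for build GRCm38.p6 and running from 250 bases before to 50 after a gene's start, were matched for 34 of the 44 members (43 windows). They were searched on both strands for the ER stress element to which ATF6 binds with NF-Y, a CCAAT box followed after 9 bases of any kind by CCACG. None of the 43 member windows held the whole element, against 0.119% of all 32851 windows, and none held TGACGTGG, another ATF6 site (0.676% of all windows). The CCAAT box alone was found in 21 of the 43 member windows, in 18 genes (37.4% of all windows), and CCACG alone in 21 of the 43, in 17 genes (32.8%). Several windows were matched for 6 members, and some of these overlap. None of the member windows held TCAAGGTCA, a site of estrogen-related receptors (0.423% of all windows), or TGATGNAAN, the core of an amino acid response element (3.95%). At shares this low, 43 windows can lack a match whether or not the members differ from other genes, so nothing is drawn from these absences. A match describes letters in these windows and no more. The windows of 2 members with large falls and of 1 that rose are shown, with CCAAT (or ATTGG, its other strand) and CCACG in capitals. That of Slc25a34 is chr4:141623785-141624084, minus strand, with a CCAAT box on the opposite strand 64 bases upstream of the start; that of Slc25a20 is chr9:108661886-108662185, plus strand, with CCACG 18 bases upstream; and that of Slc25a40 is chr5:8422588-8422887, plus strand, with CCACG 2 bases past the start.
Slc25a34: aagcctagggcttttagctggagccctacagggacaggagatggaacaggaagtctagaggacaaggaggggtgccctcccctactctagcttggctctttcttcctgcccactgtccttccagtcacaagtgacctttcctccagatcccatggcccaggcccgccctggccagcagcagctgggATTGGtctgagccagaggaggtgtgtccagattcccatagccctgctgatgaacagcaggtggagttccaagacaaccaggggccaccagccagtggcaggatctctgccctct
Slc25a20: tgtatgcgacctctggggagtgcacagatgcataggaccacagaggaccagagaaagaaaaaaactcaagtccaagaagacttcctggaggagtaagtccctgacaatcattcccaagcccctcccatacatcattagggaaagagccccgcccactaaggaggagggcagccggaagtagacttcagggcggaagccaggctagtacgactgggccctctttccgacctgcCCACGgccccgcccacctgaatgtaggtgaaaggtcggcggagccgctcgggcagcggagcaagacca
Slc25a40: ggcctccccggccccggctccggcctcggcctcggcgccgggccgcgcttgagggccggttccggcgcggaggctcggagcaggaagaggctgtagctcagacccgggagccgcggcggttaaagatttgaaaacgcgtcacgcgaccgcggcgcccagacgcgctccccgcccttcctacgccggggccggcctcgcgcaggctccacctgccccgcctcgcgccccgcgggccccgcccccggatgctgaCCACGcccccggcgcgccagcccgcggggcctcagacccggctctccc

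The carriers of the malate-aspartate shuttle, which moves cytosolic reducing equivalents into the matrix, were lower together. With the glutamate importer Slc25a22 counted among them, 4 of 4 tested members fell, where 14.4% of all genes did, with a median change of -1.32. Slc25a11, the oxoglutarate-malate carrier, read 14.50, 14.66 and 14.54 in TG tamoxifen and 16.05, 15.94 and 15.90 in TG vehicle. Its NTG tamoxifen arrays read 15.18, 15.52 and 15.58 and its NTG vehicle arrays 16.08, 16.05 and 15.72. TG tamoxifen lay below every other array, and NTG tamoxifen lay below both vehicle groups without overlap. Slc25a11 fell by 1.40 ± 0.17, 2.64-fold (adjusted p = 0.00159, 95% interval -1.77 to -1.03).

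The 2 aspartate-glutamate exchangers, Slc25a12 (aralar, the form of muscle and brain) and Slc25a13 (citrin, the main form of liver), both fell. Slc25a12 read 14.32, 14.60 and 14.42 in TG tamoxifen against 15.51, 15.31 and 15.21 in TG vehicle, and 14.73, 15.23 and 15.14 and 15.47, 15.46 and 15.25 in NTG tamoxifen and NTG vehicle. Slc25a13 read 12.44, 12.48 and 12.75 in TG tamoxifen against 13.80, 14.10 and 14.01 in TG vehicle, and 12.85, 13.43 and 13.67 and 14.03, 13.77 and 13.58 in the NTG groups in the same order. For both genes the TG tamoxifen arrays were below every other array. The falls were 0.89 ± 0.18 for Slc25a12 (adjusted p = 0.00583) and 1.42 ± 0.22 for Slc25a13 (adjusted p = 0.00243), with 95% intervals of -1.28 to -0.51 and -1.90 to -0.93.

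Slc25a22, a proton-coupled glutamate importer, read 11.24, 11.24 and 11.53 in TG tamoxifen and 12.38, 12.87 and 12.51 in TG vehicle. NTG tamoxifen arrays read 11.76, 12.38 and 12.29 and NTG vehicle arrays 11.68, 11.83 and 12.25. TG tamoxifen was lowest and TG vehicle highest, though the lowest TG vehicle and the highest NTG tamoxifen array were nearly level. Slc25a22 fell by 1.25 ± 0.22 (adjusted p = 0.00393). Of the shuttle's enzymes, the matrix aminotransferase Got2 fell by 0.94 ± 0.17 (adjusted p = 0.00363), while the cytosolic Got1 read 0.67 ± 0.31 (adjusted p = 0.133) and the malate dehydrogenases Mdh1 and Mdh2 read -0.02 ± 0.15 and -0.06 ± 0.14, and none of these 3 passed the test.

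Slc25a10, which exchanges malate or succinate for phosphate, read 10.52, 10.46 and 10.46 in TG tamoxifen and 11.24, 11.76 and 11.30 in TG vehicle. Its NTG arrays ran from 11.11 to 11.93 with tamoxifen and from 11.05 to 11.44 with vehicle. The TG tamoxifen arrays lay close together and below all 9 others. Slc25a10 fell by 0.95 ± 0.23 (adjusted p = 0.0124). The citrate carrier Slc25a1, which exports citrate for lipid synthesis, read 0.50 ± 0.32 (adjusted p = 0.281), with TG vehicle spread over 9.47 to 10.78 and overlapping TG tamoxifen.

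Among carriers of amino acids and S-adenosylmethionine, 1 of 5 tested members fell, where 14.4% of all genes did, and all 5 had a negative change. Slc25a26, which imports S-adenosylmethionine, the methyl donor of the matrix, read 11.04, 11.00 and 11.32 in TG tamoxifen and 12.23, 11.79 and 12.42 in TG vehicle. It read 10.57, 11.11 and 11.16 in NTG tamoxifen and 12.39, 12.15 and 12.29 in NTG vehicle. Both tamoxifen groups lay below both vehicle groups without overlap. In TG hearts Slc25a26 fell by 1.03 ± 0.21 (adjusted p = 0.00764).

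The other members of this group did not pass. Slc25a29, a carrier of basic amino acids, read -0.69 ± 0.24 (adjusted p = 0.0522), with no overlap between 10.81 to 11.40 in TG tamoxifen and 11.62 to 12.26 in TG vehicle. All 5 of its probe sets above the filter level read lower, from -1.53 to -0.69, and with every probe set tested 1 of them passed, at -1.09 (adjusted p = 0.0477). Slc25a44, which takes up branched-chain amino acids, read -0.49 ± 0.27 (adjusted p = 0.205), the glycine carrier Slc25a38 -0.45 ± 0.23 (adjusted p = 0.159) and the ornithine carrier Slc25a15 -0.02 ± 0.19 (adjusted p = 0.942).

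Carriers of cofactors and nucleotides moved in different directions, with 1 of 7 tested members higher and 2 lower (10.4% and 14.4% of all genes). Slc25a32, known for folate and FAD transport, read 11.13, 10.80 and 11.04 in TG tamoxifen and 9.89, 9.53 and 8.80 in TG vehicle. Its NTG arrays read 9.01, 9.08 and 9.97 with tamoxifen and 9.83, 9.97 and 8.73 with vehicle. The TG tamoxifen arrays were the highest of the 12, with a gap to the next array, at 9.97. Slc25a32 rose by 1.58 ± 0.38, 3-fold (adjusted p = 0.0125), the largest rise among the 37 tested members. The means of TG vehicle, NTG tamoxifen and NTG vehicle, at 9.41, 9.35 and 9.51, lay near the filter level of 9.42. Below that level, 1 other probe set read 10.48, 10.75 and 9.85 in TG tamoxifen and 9.24, 9.77 and 9.26 in TG vehicle. Another overlapped, at 7.61, 9.60 and 8.31 against 9.51, 8.23 and 8.53.

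Slc25a42, which exchanges coenzyme A, read 10.27, 11.13 and 11.29 in TG tamoxifen and 12.64, 12.29 and 12.16 in TG vehicle. NTG tamoxifen read 11.51, 13.02 and 12.46 and NTG vehicle 13.44, 13.47 and 13.55. TG tamoxifen was lowest and NTG vehicle highest, with the other groups between them. Slc25a42 fell by 1.47 ± 0.36 (adjusted p = 0.0135), and did not pass without TG tamoxifen 1, the lowest array, at -1.15 (adjusted p = 0.0572).

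Slc25a51, the NAD+ carrier, read 12.54, 12.62 and 12.62 in TG tamoxifen and 13.44, 13.23 and 12.92 in TG vehicle. Its NTG arrays read 12.91, 13.27 and 13.31 with tamoxifen and 13.89, 13.74 and 13.93 with vehicle. TG tamoxifen was below all other arrays and NTG vehicle above all others. Slc25a51 fell by 0.60 ± 0.18 (adjusted p = 0.0301). Its call was lost without TG tamoxifen 1 (0.0922), TG tamoxifen 2 (0.0718), TG tamoxifen 3 (0.068), TG vehicle 1 (0.0762) or TG vehicle 2 (0.0749), where the adjusted p is in parentheses, and a second probe set of the gene read -0.06 in the test of every probe set.

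No other cofactor or nucleotide carrier passed in TG tamoxifen against TG vehicle. Slc25a36 and Slc25a33, which carry pyrimidine nucleotides, read -0.65 ± 0.28 (adjusted p = 0.107) and -0.16 ± 0.20 (adjusted p = 0.586). Slc25a16, linked to coenzyme A supply, read 0.02 ± 0.20, and Slc25a17, a carrier of CoA and FAD in peroxisomes rather than mitochondria, 0.72 ± 0.53 (adjusted p = 0.344). The 3 probe sets of Slc25a36 above the filter level disagreed in sign, with 0.29 for 1 of them.

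The glutathione carriers Slc25a39 and Slc25a40, which are close relatives, moved apart. Slc25a39 read 15.37, 15.39 and 15.20 in TG tamoxifen and 15.61, 16.23 and 15.99 in TG vehicle, and 16.51, 16.52 and 16.95 and 16.12, 16.21 and 16.23 in NTG tamoxifen and NTG vehicle. Slc25a40 read 11.26, 11.14 and 10.85 in TG tamoxifen and 10.59, 10.15 and 10.58 in TG vehicle, and 10.48, 9.82 and 10.25 and 10.89, 11.07 and 11.05 in NTG tamoxifen and NTG vehicle. In TG hearts tamoxifen arrays lay below vehicle arrays for Slc25a39 and above them for Slc25a40 (with median centring the TG groups of Slc25a39 overlapped), and in NTG hearts the order was the opposite for both, again without overlap. Slc25a39 fell by 0.62 ± 0.19 (adjusted p = 0.0357) and Slc25a40 rose by 0.65 ± 0.21 (adjusted p = 0.0406) in TG tamoxifen against TG vehicle.

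Both calls in TG hearts were close to the threshold. That of Slc25a39 was lost without TG tamoxifen 1 (0.0814), TG tamoxifen 2 (0.0715), TG tamoxifen 3 (0.105), TG vehicle 2 (0.122), TG vehicle 3 (0.085), NTG vehicle 1 (0.0516), NTG vehicle 2 (0.053) or NTG vehicle 3 (0.0504), with the adjusted p in parentheses. That of Slc25a40 was lost without TG tamoxifen 1 (0.14), TG tamoxifen 2 (0.106), TG vehicle 2 (0.134), TG vehicle 3 (0.0574), NTG vehicle 1 (0.0554), NTG vehicle 2 (0.0576) or NTG vehicle 3 (0.0564). All 4 probe sets of Slc25a39 above the filter level read lower, from -0.70 to -0.52. The mitoferrins, which import iron, did not pass, with Slc25a37 at -0.23 ± 0.22 (adjusted p = 0.479) and Slc25a28 at 0.46 ± 0.32 (adjusted p = 0.324).

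The carriers that exchange ADP for ATP and import phosphate for ATP synthesis did not pass the test. Slc25a4, the adenine nucleotide translocase of heart and muscle, read 18.51, 18.54 and 18.51 in TG tamoxifen and 18.47, 18.46 and 18.40 in TG vehicle. Slc25a5, the form found in most tissues, read 17.27, 17.30 and 17.41 and 16.73, 16.75 and 17.11, and Slc25a3, the phosphate carrier, 17.91, 17.94 and 17.91 and 18.22, 18.31 and 18.14 in the same order. After quantile normalisation the 2 groups did not overlap for any of these 3 genes. On the deposited intensities they overlapped for Slc25a4, at 293687 to 346493 in TG tamoxifen and 326400 to 412964 in TG vehicle, and for Slc25a5, at 144965 to 169687 and 112879 to 162567. The sign for Slc25a4 turned with the scaling, with a log2 difference of 0.08 after quantile normalisation, -0.11 with median centring and -0.26 as deposited. In the reported fit the differences came to 0.08 ± 0.13 (adjusted p = 0.694) for Slc25a4, 0.46 ± 0.19 (adjusted p = 0.0989) for Slc25a5 and -0.30 ± 0.13 (adjusted p = 0.118) for Slc25a3, with 95% intervals of -0.21 to 0.36, 0.04 to 0.88 and -0.59 to -0.01. Without the array labelled NTG tamoxifen 1, Slc25a5 passed, at 0.46 (adjusted p = 0.0436). That array is in neither group and enters through the shared normalisation, filter and estimate of spread. Slc25a5 is read here through a probe set whose name marks it as able to pick up related transcripts, and all 8 of its probe sets above the filter level had positive changes.

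Of the ATP-Mg and phosphate exchangers, which are regulated by calcium and set the matrix pool of adenine nucleotides, 1 of 3 tested members rose (10.4% of all genes). Slc25a24 read 12.14, 11.98 and 12.19 in TG tamoxifen and 10.75, 11.23 and 11.46 in TG vehicle. NTG tamoxifen arrays read 11.58, 10.84 and 11.07 and NTG vehicle arrays 11.42, 11.54 and 10.85. TG tamoxifen was above all other arrays, which overlapped among themselves. Slc25a24 rose by 0.96 ± 0.26 (adjusted p = 0.0203), and the call was lost without TG tamoxifen 1 (0.0637), TG tamoxifen 3 (0.0598) or TG vehicle 1 (0.0567). Slc25a25 and Slc25a23 read 0.82 ± 0.54 (adjusted p = 0.286) and -0.12 ± 0.27 (adjusted p = 0.784).

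The relatives of the uncoupling proteins, Slc25a27 and Slc25a30, read 0.45 ± 0.22 (adjusted p = 0.158) and -0.02 ± 0.16 (adjusted p = 0.951). Ucp3, an uncoupling protein of muscle that belongs to the same protein family under another symbol, read 10.03, 10.67 and 10.22 in TG tamoxifen and 11.64, 12.67 and 12.48 in TG vehicle. TG tamoxifen lay below every other array, the lowest of which was the array labelled NTG tamoxifen 1, at 11.10. Ucp3 fell by 1.96 ± 0.38 (adjusted p = 0.00523). The carrier homologues Mtch1 and Mtch2 of the outer membrane read -0.40 ± 0.18 (adjusted p = 0.127) and -0.30 ± 0.16 (adjusted p = 0.197).

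The outer-membrane member and the 3 orphan carriers tested here did not pass in this comparison. Slc25a46, an outer-membrane member with a part in mitochondrial dynamics, read 14.26, 14.29 and 14.42 in TG tamoxifen and 14.09, 13.65 and 13.81 in TG vehicle. These groups were apart, with a change of 0.47 ± 0.18 (adjusted p = 0.0801). The orphans Slc25a45, Slc25a47 and Slc25a53 read -0.34, -0.42 and 0.33. A further 7 members, Slc25a2, Slc25a14, Slc25a18, Slc25a31, Slc25a41, Slc25a48 and Slc25a54, lay below the level for testing. They include the adenine nucleotide translocase of testis (Slc25a31) and a second glutamate carrier (Slc25a18).

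**Figure D2:**
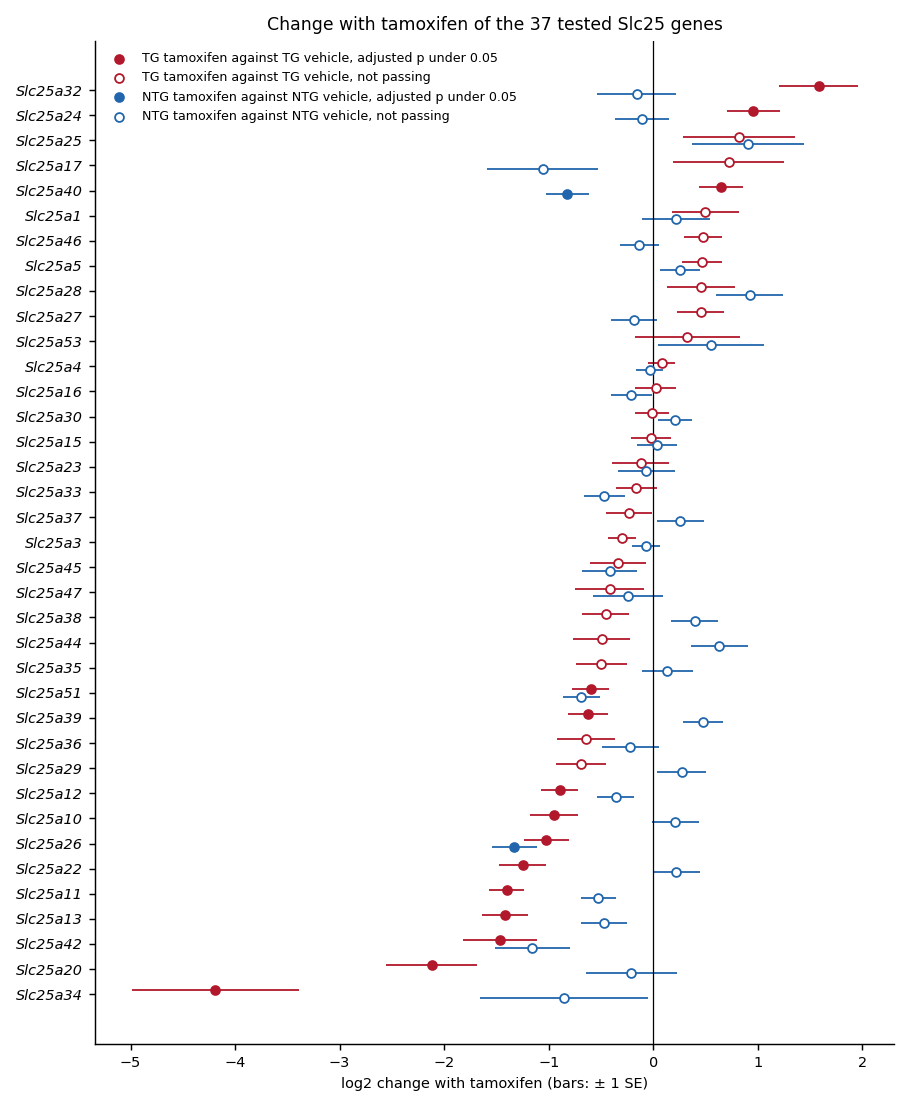
Log2 change with tamoxifen of the 37 tested Slc25 genes in TG hearts (red) and NTG hearts (blue), with bars of 1 standard error; each value compares 3 arrays with 3. Filled points passed the adjusted threshold of 0.05. The red filled points are the 11 genes that fell and 3 that rose, from -4.19 for Slc25a34 to 1.58 for Slc25a32, and the 2 blue filled points are Slc25a26 and Slc25a40.

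Several probe sets above the filter level were present for 14 of the tested genes. Their changes in TG tamoxifen against TG vehicle had 1 sign in 10 of these genes and mixed signs in Slc25a3, Slc25a4, Slc25a30 and Slc25a36, none of which passed the test. When all probe sets of the array were tested and p adjusted over them, 7 of the 68 member probe sets above the filter level were lower and 0 higher (limma). The gene-level count came to 5, where 5.96% of all genes passed. The genes counted there were Slc25a11, Slc25a13, Slc25a20, Slc25a22 and Slc25a34. For Slc25a12 the 3 probe sets read -0.95, -0.89 and -0.18, so the fall was not seen to the same size in each. The probe sets that stand for Slc25a26, Slc25a29, Slc25a39, Slc25a47 and Slc25a5 carry such a mark for related transcripts too.

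**Figure D3:**
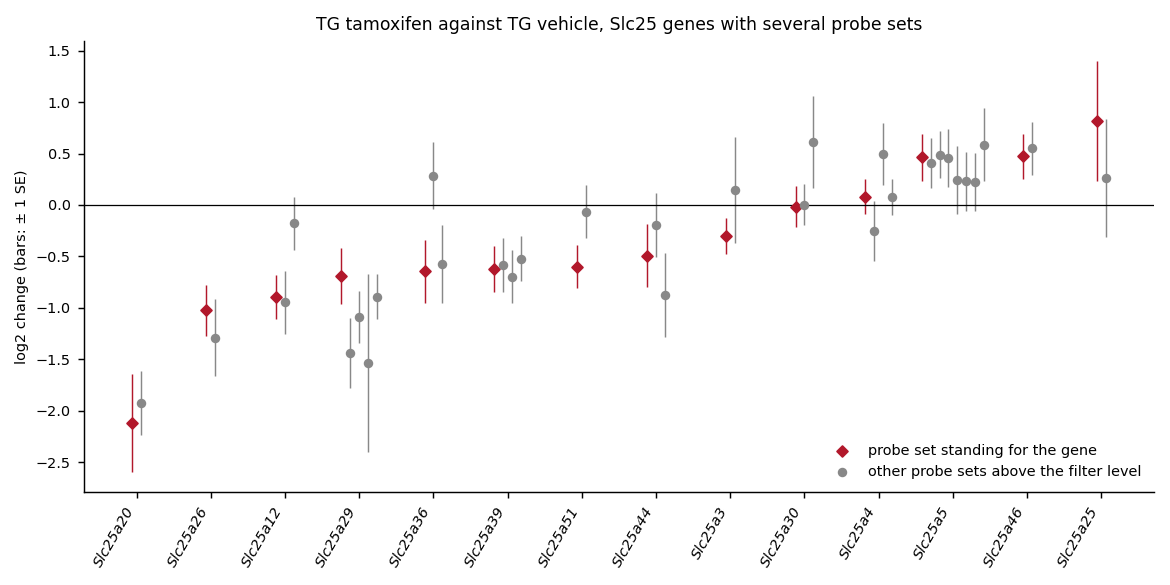
Log2 change in TG tamoxifen against TG vehicle (vertical axis, bars of 1 standard error, 3 arrays per group) for each probe set of the 14 Slc25 genes with several probe sets above the filter level, in a fit of all probe sets. Red diamonds mark the probe set that stands for the gene and grey circles the others. Both probe sets of Slc25a20 lie near -2, while those of Slc25a36 lie on both sides of 0.

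The counts of the next 3 lists stand beside 10.4% of all genes tested that rose and 14.4% that fell in TG tamoxifen against TG vehicle. Of 13 genes of the carrier import machinery, 3 rose. They were Tomm70a, the outer-membrane receptor for carrier precursors, by 0.95 ± 0.21 (adjusted p = 0.0088), the intermembrane-space chaperone Timm8a1 by 1.03 ± 0.33 (adjusted p = 0.042) and the receptor Tomm20 by 0.45 ± 0.15 (adjusted p = 0.0489). Timm29, a subunit of the inner-membrane carrier insertase, fell by 0.68 ± 0.21 (adjusted p = 0.0377), while Timm22, its channel, read -0.01 ± 0.25. Of 16 other mitochondrial membrane transporters, 0 rose (limma) and 3 fell. These were the sideroflexin Sfxn4 by 1.72 ± 0.28 (adjusted p = 0.00298), the ABC transporter Abcb8 by 1.03 ± 0.22 (adjusted p = 0.0084) and the cation exchanger gene Letm1 by 0.82 ± 0.26 (adjusted p = 0.0409). Of 11 enzymes that work beside the carriers, 4 fell, namely Cpt2, Crat and Got2, given above, and Ppif, cyclophilin D of the permeability transition pore, by 1.13 ± 0.19 (adjusted p = 0.0033).

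In nontransgenic hearts Slc25a26, the carrier of S-adenosylmethionine, and Slc25a40, a carrier of glutathione, fell with tamoxifen. Of 37 members, 2 fell and 0 rose (limma, 9 at an unadjusted p under 0.05) in NTG tamoxifen against NTG vehicle, 5.41%, where 4.31% of all genes passed (3.65% lower and 0.654% higher). The median change was -0.11, beside -0.01 over all genes, and -0.06 beside -0.01 without the array labelled NTG tamoxifen 1. Slc25a26, whose values are given above, fell by 1.33 ± 0.21 (adjusted p = 0.0152), in the same direction as in TG hearts. Slc25a40 fell by 0.82 ± 0.21 (adjusted p = 0.0473), the opposite of its direction in TG hearts, while the other glutathione carrier, Slc25a39, read 0.48 ± 0.19 (adjusted p = 0.161). Leaving out the array labelled NTG tamoxifen 1, Slc25a26 and Slc25a40 read -1.14 (adjusted p = 0.0289) and -0.98 (adjusted p = 0.0408).

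In the same comparison Slc25a34 read -0.85 ± 0.80 (adjusted p = 0.557) and Slc25a20 -0.21 ± 0.43 (adjusted p = 0.814). Without the array labelled NTG tamoxifen 1 they read 0.45 (adjusted p = 0.324) and 0.43 (adjusted p = 0.347), so the negative sign of both rested on that array. Slc25a42 and Slc25a51 came close to the threshold, at -1.16 ± 0.36 (adjusted p = 0.0858) and -0.69 ± 0.18 (adjusted p = 0.0501), and without the same array read -0.75 (adjusted p = 0.182) and -0.56 (adjusted p = 0.0989). The call of Slc25a26 was lost without NTG vehicle 1 (0.0639), NTG vehicle 2 (0.0751) or NTG vehicle 3 (0.0609), and that of Slc25a40 without TG tamoxifen 1 (0.0662), TG tamoxifen 2 (0.0738), TG tamoxifen 3 (0.0614), TG vehicle 3 (0.0588), NTG tamoxifen 2 (0.0814), NTG tamoxifen 3 (0.105), NTG vehicle 1 (0.104), NTG vehicle 2 (0.157) or NTG vehicle 3 (0.129), with the adjusted p in parentheses.

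Between the genotypes on vehicle, 1 carrier differed. In TG vehicle against NTG vehicle 1 member was higher and 0 lower (limma, 7 at an unadjusted p under 0.05), 2.7%, where 3.63% of all genes passed (1.39% higher and 2.24% lower), and the median change was -0.03 beside 0.01 over all genes. Slc25a16 read 12.24, 11.88 and 12.01 in TG vehicle and 11.58, 11.20 and 10.92 in NTG vehicle. These groups did not overlap, and the TG tamoxifen arrays, at 11.97 to 12.26, lay in the range of TG vehicle or just above it. Slc25a16 was higher by 0.81 ± 0.20 (adjusted p = 0.047). Its call was lost on leaving out any 1 array other than the one labelled NTG tamoxifen 1, with adjusted p values of 0.051 to 0.163.

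Without the array labelled NTG tamoxifen 1, which is in neither group and enters through the shared normalisation, filter and spread, 4 members passed, where 7.15% of all genes did. These were Slc25a16, at 0.81 (adjusted p = 0.0367), and 3 that were lower in TG vehicle, Slc25a42 at -1.13 (adjusted p = 0.0363), Slc25a27 at -0.90 (adjusted p = 0.0433) and Slc25a51 at -0.66 (adjusted p = 0.0363). Centring on medians in place of quantile normalisation gave 0 members higher and 2 lower, where 4.89% of all genes passed, and shifted the median of all genes from 0.01 to -0.11. For Slc25a42 the TG vehicle arrays, at 12.16 to 12.64, all lay below the NTG vehicle arrays, at 13.44 to 13.55.

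Between the genotypes on tamoxifen, 18 of the 37 members differed, 6 higher and 12 lower in TG tamoxifen than in NTG tamoxifen. This was 48.6% of members, where 39.5% of all genes passed (19% higher and 20.6% lower), with a median change of -0.35 beside -0.06 (without the array labelled NTG tamoxifen 1, -0.31 beside -0.04). Arrays of these groups were apart for 18 members that were lower (48.6%, against 27% of all genes) and 8 that were higher (21.6%, against 24%). Without the array labelled NTG tamoxifen 1 these counts were 19 (34.3% of all genes) and 8 (31% of all genes), and with median centring of all arrays 11 (21.2%) and 7 (28.1%). This comparison shares its TG tamoxifen arrays with the one against TG vehicle. Slc25a16, Slc25a17, Slc25a29, Slc25a44 and Slc25a46 passed here, and against TG vehicle they read 0.02, 0.72, -0.69, -0.49 and 0.47 without passing. Slc25a26 passed against TG vehicle and read 0.17 ± 0.21 (adjusted p = 0.547) here.

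Slc25a34 read -3.74 ± 0.80 (adjusted p = 0.00387) in this comparison and -5.06 (adjusted p = 2.91e-06) without the array labelled NTG tamoxifen 1. Slc25a20 read -1.57 ± 0.43 (adjusted p = 0.0141) and -2.21 (adjusted p = 0.000132) without it. With all arrays Slc25a39 had the smallest adjusted p, at -1.34 ± 0.19 (adjusted p = 0.000523), with no overlap between 15.20 to 15.39 in TG tamoxifen and 16.51 to 16.95 in NTG tamoxifen. Among those higher, Slc25a46 read 1.02 ± 0.18 (adjusted p = 0.00148), Slc25a16 1.04 ± 0.20 (adjusted p = 0.00194) and Slc25a32 1.63 ± 0.38 (adjusted p = 0.00549). Slc25a17 read 11.71, 11.63 and 11.27 in TG tamoxifen and 10.43, 7.86 and 10.08 in NTG tamoxifen, a difference of 2.08 ± 0.53 (adjusted p = 0.00939) in which NTG tamoxifen 2 was the lowest array. Without the array labelled NTG tamoxifen 1 these 5 genes passed too, with Slc25a39 at -1.42, Slc25a46 at 1.13, Slc25a16 at 1.11, Slc25a32 at 1.47 and Slc25a17 at 2.58.

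The remaining lower members were Slc25a10 at -0.98, Slc25a11 at -0.86, Slc25a12 at -0.59, Slc25a13 at -0.76, Slc25a22 at -0.81, Slc25a29 at -0.99, Slc25a42 at -1.44, Slc25a44 at -1.09 and Slc25a51 at -0.57, and the remaining higher ones Slc25a24 at 0.94 and Slc25a40 at 0.90. With the array labelled NTG tamoxifen 1 left out, 19 members passed, the 18 and Slc25a5, at 0.63 (adjusted p = 0.0125), where 42.9% of all genes did, and the remaining lower members read -1.85 (Slc25a42) to -0.69 (Slc25a51), and Slc25a24 and Slc25a40 1.15 and 1.06. Leaving out single arrays gave 13 to 19, where 30.4% to 42.9% of all genes passed. Calls were lost for Slc25a12 without TG tamoxifen 1 (0.077), TG tamoxifen 3 (0.0608), NTG tamoxifen 2 (0.0736) or NTG tamoxifen 3 (0.0667), for Slc25a13 without TG tamoxifen 1 (0.0608), TG tamoxifen 2 (0.0562), NTG tamoxifen 2 (0.054) or NTG tamoxifen 3 (0.0713) and for Slc25a20 without TG tamoxifen 1 (0.0525), NTG tamoxifen 2 (0.0557) or NTG tamoxifen 3 (0.0613), with the adjusted p in parentheses. They were also lost for Slc25a22 without NTG tamoxifen 2 (0.0526) or NTG tamoxifen 3 (0.0505), for Slc25a24 without NTG tamoxifen 2 (0.0508) and for Slc25a51 without TG tamoxifen 1 (0.0733), TG tamoxifen 2 (0.0587), TG tamoxifen 3 (0.0571), NTG tamoxifen 2 (0.0728) or NTG tamoxifen 3 (0.0802). With TG vehicle 3 counted as tamoxifen, 8 passed, where 27.7% of all genes did.

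The change with tamoxifen in TG hearts minus that in NTG hearts, a direct test of a difference between the genotypes, passed for 6 members. Of the 37, 2 differences were positive and 4 negative, 16.2%, where 14.3% of all genes passed (7.51% positive and 6.76% negative). The median difference was -0.22 beside -0.07 (-0.18 beside -0.07 without the array labelled NTG tamoxifen 1, and -0.09 beside -0.08 without NTG tamoxifen 2). Slc25a40 had 1.47 ± 0.29 (adjusted p = 0.0134) and Slc25a39 -1.10 ± 0.27 (adjusted p = 0.0239). For these relatives the changes in TG and NTG hearts had opposite signs, 0.65 and -0.82 for Slc25a40, and -0.62 and 0.48 for Slc25a39.

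The other 4 were Slc25a22 at -1.47 ± 0.32 (adjusted p = 0.016), Slc25a11 at -0.88 ± 0.24 (adjusted p = 0.0324), Slc25a10 at -1.16 ± 0.32 (adjusted p = 0.0345) and Slc25a32 at 1.74 ± 0.53 (adjusted p = 0.0492). For Slc25a11 both genotypes had negative changes, -1.40 in TG and -0.52 in NTG, and that in TG hearts was the larger. Slc25a20 and Slc25a34 did not pass with all arrays, at -1.91 ± 0.61 (adjusted p = 0.0582) and -3.34 ± 1.13 (adjusted p = 0.068). Both did without the array labelled NTG tamoxifen 1, at -2.55 (adjusted p = 0.00131) and -4.65 (adjusted p = 0.000102).

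Without that array 11 members passed, 3 positive and 8 negative, where 22.9% of all genes did. The additions beside Slc25a20 and Slc25a34 were Slc25a12, at -0.69 (adjusted p = 0.0493), Slc25a13, at -1.18 (adjusted p = 0.0104), Slc25a17, at 2.28 (adjusted p = 0.0401), and Slc25a24, at 1.27 (adjusted p = 0.0242), while Slc25a32 read 1.58 (adjusted p = 0.0688) and no longer passed. Leaving out other single arrays gave 2 to 7, where 5.77% to 20.2% of all genes passed. The count was 2 without TG tamoxifen 1, TG vehicle 2 or NTG vehicle 2, and 3 without TG tamoxifen 3, TG vehicle 3 or NTG vehicle 1. Slc25a22 and Slc25a40 passed whichever array was left out, at -1.66 (adjusted p = 0.00425) and 1.63 (adjusted p = 0.00401) without the array labelled NTG tamoxifen 1. Of the 12 arrays, leaving out 1 at a time ended the call of Slc25a10 for 9 (adjusted p of 0.0506 to 0.078), of Slc25a11 for 9 (adjusted p of 0.0524 to 0.079), of Slc25a32 for 9 (adjusted p of 0.0688 to 0.113) and of Slc25a39 for 6 (adjusted p of 0.0515 to 0.0561). Centring on medians gave 4 positive and 1 negative, where 16.6% of all genes passed, and shifted the median of all genes from -0.07 to 0.18. With the beta-actin ratio as a covariate 0 members passed (limma, 1 at an unadjusted p under 0.05), and the same holds with TG vehicle 3 counted as tamoxifen (8 unadjusted). In both of these fits 0% of all genes passed.

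Set against all 9 other arrays, the TG tamoxifen arrays stood apart without overlap for 12 members that were lower, 32.4%, where 12.8% of all genes did so, and for 5 that were higher, 13.5%, where 11.9% did. The lower members were Slc25a3, Slc25a10, Slc25a11, Slc25a12, Slc25a13, Slc25a22, Slc25a29, Slc25a34, Slc25a36, Slc25a39, Slc25a42 and Slc25a51, and the higher ones Slc25a4, Slc25a5, Slc25a24, Slc25a32 and Slc25a46. Slc25a4 and Slc25a5 stood apart only after quantile normalisation and overlapped on the deposited intensities and with median centring. The counts were then 12 lower and 3 higher (13.7% and 11.3% of all genes) as deposited, and 8 and 3 (9.57% and 13.6%) with median centring, where Slc25a12, Slc25a36, Slc25a39 and Slc25a51 overlapped too. On leaving out NTG tamoxifen 1 instead, 13 were lower and 5 higher (15.4% and 14.9% of all genes). Slc25a20 is missing from the first set because the array labelled NTG tamoxifen 1, at 14.11, fell below the highest TG tamoxifen array, at 14.12.

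**Figure D4:**
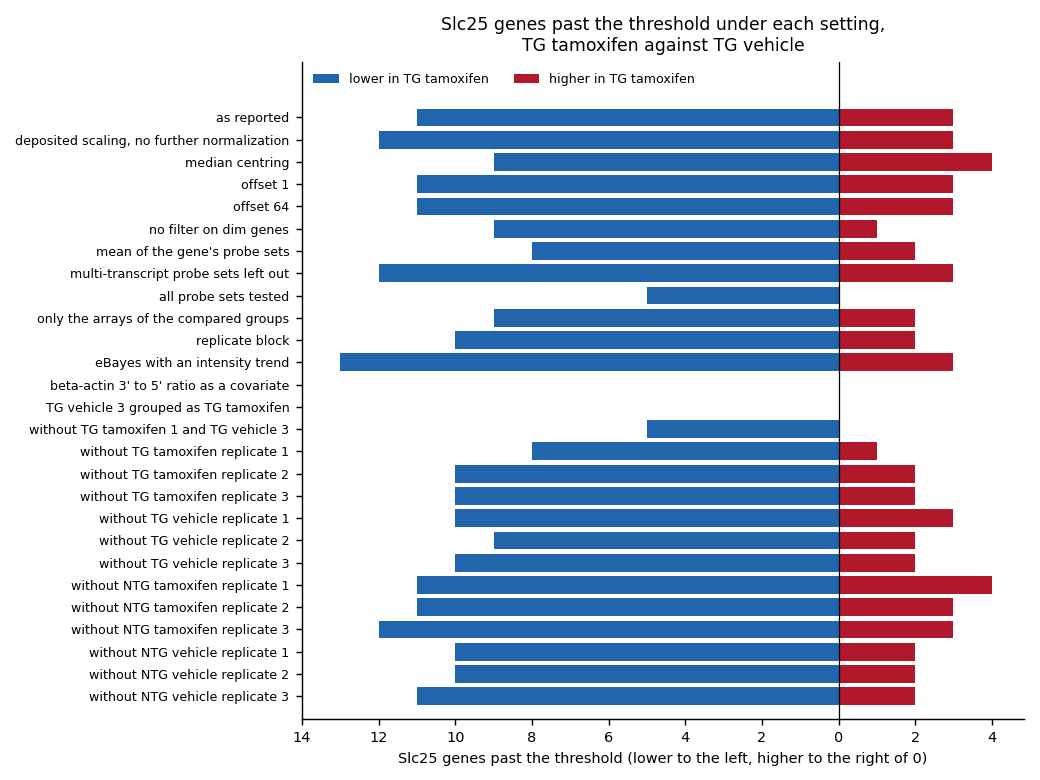
Number of Slc25 genes that passed in TG tamoxifen against TG vehicle under each setting, with lower genes as bars to the left of 0 and higher genes to the right. The top bar, as reported, has 11 lower and 3 higher. No bar is drawn for the beta-actin covariate or for TG vehicle 3 grouped as tamoxifen, where 0 members passed, and the bar for all probe sets tested has 5 lower.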

How the data were processed

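Each of 12 left ventricles was read on 1 Affymetrix array, and the titles gave the groups, 3 arrays in each. The authors deposited probe-set intensities on a linear scale. Judged from the values, each array had been scaled to a common target, since its mean without the lowest and highest 2% came to about 2500.02. How probes were summarised is not given in the sources used here. Of 45101 probe sets, 64 controls were left out, 34945 of the rest had 1 gene symbol in the platform annotation, 932 several and 9160 none. Intensities were taken as log2(intensity + 16). Array medians spanned 0.356 on the log2 scale, over the limit of 0.2, so quantile normalization was applied. The probe set with the highest mean stood for its gene. Genes whose probe set was dimmer than the median probe set (log2 of 9.42, an intensity of about 670.3) were left out. The offset of 16 understates changes more in dim genes than in bright ones.

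Group differences were tested two-sided in R 4.3.3 by limma 3.58.1 (lmFit, then eBayes, over all 12 arrays, with 8 residual and 3.55 prior degrees of freedom), with Benjamini-Hochberg adjustment over the 11166 genes of a comparison and a threshold of 0.05. The number of arrays limits the precision. On simulated data the script was tested for recovery of known changes. Every family member could be named; of each other gene list, up to 4 genes by smallest adjusted p were named, and all arrays' values were given for members among the smallest p-values. Genes outside this rule (Got1, Mdh1, Mdh2, Cpt1a, Timm22, marker genes) were named after their values were seen. The members and lists were chosen with earlier results of these data known. Same-numbered arrays of different groups did not deviate together: 18 correlations of their deviations from the group means ran from -0.087 to 0.092, with 0 above 0.1, so the numbers were not used as pairs. The labels call each sample a separate heart. The 26 alternatives covered scaling, offset, filter, choice of probe set, variance model, replicate block, the beta-actin ratio, TG tamoxifen 1 and TG vehicle 3 left out together and single arrays left out. Array overlap under other scalings was added after the data were seen.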

Additional observations from a re-analysis of the deposited data

Results flagged for a closer look

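For 6 members the change with tamoxifen differed between TG and NTG hearts in the direct test of that difference (limma, 3 arrays per group, adjusted over all genes). Slc25a40 had a difference of 1.47 ± 0.29 (adjusted p = 0.0134). Slc25a22 had -1.47 ± 0.32 (adjusted p = 0.016). Slc25a39 had -1.10 ± 0.27 (adjusted p = 0.0239). Slc25a11 had -0.88 ± 0.24 (adjusted p = 0.0324). Slc25a10 had -1.16 ± 0.32 (adjusted p = 0.0345). Slc25a32 had 1.74 ± 0.53 (adjusted p = 0.0492). Without the array labelled NTG tamoxifen 1, Slc25a32 read 1.58 (adjusted p = 0.0688) and the other 5 passed. Leaving out 1 array at a time ended the call of Slc25a10, Slc25a11 and Slc25a32 for 9 of the 12 arrays each (adjusted p of 0.0506 to 0.078, 0.0524 to 0.079 and 0.0688 to 0.113) and of Slc25a39 for 6 (0.0515 to 0.0561), while Slc25a22 and Slc25a40 passed each time. Groups of 3 arrays are too small for the rule on single outlying samples, so that rule was not applied. The array labelled NTG tamoxifen 1 was singled out by its Esr1, Hspa5 and Rcan1 levels, without a test.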

How the results depend on the processing

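None of the members' called changes turned in direction under any of the alternatives run; of the uncalled members in TG tamoxifen against TG vehicle, Slc25a4, Slc25a15 and Slc25a30 changed sign with median centring. The share of all genes that passed is given in parentheses after each count. In TG tamoxifen against TG vehicle (14 members called), testing all probe sets gave 5 (5.96%), the beta-actin covariate 0 (0.251%) and TG vehicle 3 counted as tamoxifen 0 (0%). Leaving out TG tamoxifen 1 and TG vehicle 3 together gave 5 (6.62%), and leaving out single arrays gave 9 to 15 (13.1% to 29.2%). In NTG tamoxifen against NTG vehicle (2 called), median centring gave 5 (8.7%) and an intensity trend in eBayes 4 (6.56%). The replicate block gave 1 (1.28%), leaving out multi-transcript probe sets 1 (4.22%) and leaving out both these arrays 1 (0.753%). No filter, the mean of probe sets, all probe sets, only the compared arrays, the covariate and the regrouped array gave 0 each (0% to 2.1%). Single arrays gave 0 to 3 (0% to 7.54%), with 0 without each NTG vehicle array. In TG vehicle against NTG vehicle (1 called), median centring gave 2 (4.89%) and the trend 3 (5.61%). No filter, the mean, all probe sets, only the compared arrays, the replicate block, the covariate, the regrouped array and both these arrays left out gave 0 each (0% to 1.56%). Single arrays gave 0 to 4 (0.0179% to 7.15%). In TG tamoxifen against NTG tamoxifen (18 called), the regrouped array gave 8 (27.7%), and single arrays 13 to 19 (30.4% to 42.9%). For the difference between the tamoxifen changes (6 called), no filter gave 1 (1.95%). All probe sets, the covariate, the regrouped array and both these arrays left out gave 0 each (0% to 0.511%). Single arrays gave 2 to 11 (5.77% to 22.9%). The counts of 0 are from limma, with 1 to 15 members at an unadjusted p under 0.05. The replicate number as a block gave 12, 1, 0, 18 and 5 members in the 5 comparisons in this order (22.1%, 1.28%, 0.815%, 37.9% and 11.9% of all genes). The labels do not say that the numbers pair the samples. Apart from what these settings change by construction, the cause was not tested. A fit of only the compared arrays is no alternative for the last comparison, which uses all arrays. Median centring moved the median change of all genes from -0.07 to 0.03, -0.01 to -0.16, 0.01 to -0.11, -0.06 to 0.06 and -0.07 to 0.18 in the same order. The 3 arrays per group and the weak signal of 7 members set the limits of what could be tested.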

Other observations

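Besides Slc25a34 and Slc25a20, further members read apart from the other NTG tamoxifen arrays on the array labelled NTG tamoxifen 1. They were chosen here after their values were seen and with no test. Slc25a28, a mitoferrin that imports iron, read 14.36, 12.99 and 12.93 on NTG tamoxifen 1 to 3, and no array of the other groups exceeded 12.85. Slc25a42, the coenzyme A carrier, read 11.51, 13.02 and 12.46, and Slc25a13, citrin, read 12.85, 13.43 and 13.67, in each case with the array labelled 1 lowest. Of the other members that fell in TG hearts, Slc25a11, Slc25a12, Slc25a22, Slc25a26 and Slc25a51 were also lowest on that array among NTG tamoxifen arrays. Of those that rose in TG hearts, Slc25a24 and Slc25a40 were highest on it and Slc25a32 was lowest. Slc25a5 read 17.26, 16.56 and 16.82, with that array highest and level with the TG tamoxifen arrays, at 17.27 to 17.41. Slc25a10 and Slc25a39, both lower in TG tamoxifen, read 11.33, 11.93 and 11.11 and 16.51, 16.52 and 16.95, with the array labelled 1 inside or beside the range of the others.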
